A study of Mus musculus with 12 samples.

Results

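The genes described here encode the subunits of the proteasome and its dedicated activators and assembly factors. They were chosen by name alone: every row of the count table whose Entrez ID maps to a mouse symbol made of Psma, Psmb, Psmc, Psmd, Psme, Psmf or Psmg and a digit, without pseudogenes. The rule gave 50 of 27179 genes. Of these, 48 encode proteasome subunits, activators, inhibitors or chaperones, and the others, Psmc3ip and Psme3ip1, are named after a proteasome gene they partner and are described at the end. RNA-Seq was performed on splenic B cells of young adult male C57BL/6 mice (a C57BL/6 Pep3b background in the study's methods) at 6 stages with 2 libraries each. Naive B cells (sorted as B220+IgM+IgDhi) received no treatment. All other cells were cultured with 25 µg/ml lipopolysaccharide (LPS), a bacterial cell wall component that activates B cells through Toll-like receptor 4. Activated cells that had not yet divided (CD69+ with the highest dye content) were sorted at 3 h, 10 h and 33 h, and on day 4 the culture was sorted into plasmablasts (CD22-CD138+) and B cells that had expanded without that change (CD22+CD138-, here expanded B cells). The labels call the libraries of a stage biological replicates, and no source used here says how many mice each came from, so that the p-values measure the spread between these libraries.

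The proteasome degrades proteins that carry ubiquitin chains. Its core particle, the 20S, is a barrel of outer alpha rings (Psma genes) and inner beta rings (Psmb genes), in which only the beta1, beta2 and beta5 subunits cut (Psmb6, Psmb7 and Psmb5). The 19S cap binds ubiquitin chains with its non-ATPase subunits (Psmd genes) and unfolds the substrate with a ring of ATPases (Psmc genes). In cells of the immune system and after exposure to interferon, Psmb9, Psmb10 and Psmb8 take the places of Psmb6, Psmb7 and Psmb5 in newly built particles, which are then called immunoproteasomes and yield peptides suited to MHC class I, and the PA28 activator (Psme1 and Psme2) can replace the 19S cap.

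Total counts ran from 23026619 to 60585587 per library, and 12750 genes were tested. Levels are given as RPKM, scaled counts per kilobase of gene relative to the scaled library size, and values joined by "and" are replicates 1 and 2. The term DE (differentially expressed) is used for a change that edgeR's glmTreat placed beyond 1.5-fold, and a gene was called changed at any size where edgeR's quasi-likelihood F-test called it, both at a Benjamini-Hochberg adjusted p of 0.05 over all tested genes. Shares of all tested genes come from this edgeR fit. Counts at an unadjusted p, with another scaling or method, or with libraries left out have no share of their own beside them. The share of all tested genes whose libraries did not overlap between stages was not counted. With 2 libraries a side, the smallest two-sided p that permutation allows is 0.333, so that lower values rest on the spread the model shares across genes and stages. Consecutive comparisons share the libraries of the stage between them. The B cell receptor gene Cd79a stood at 454 RPKM or more in every library, and the plasmablast genes Sdc1, Jchain, Xbp1 and Prdm1 summed to 10383 RPKM or more in plasmablasts against at most 908 RPKM elsewhere. Markers of other blood cells were highest in the naive libraries as sums, but not all of them singly. Myeloid markers (Lyz2, Csf1r, Itgam, Cd14, S100a8) summed to 114 to 272 RPKM in naive libraries and to at most 5.52 RPKM in all others, where Itgam made up most of the sum in expanded B cells (5.43 and 4.92 RPKM, against 2.11 and 1.26 RPKM in naive cells), and erythroid markers (Hba-a1, Hba-a2, Hbb-bs, Alas2) to 290 to 379 RPKM against at most 3.20 RPKM. T cell markers summed to 30.7 to 33.5 RPKM in naive libraries and to at most 17.4 RPKM in the others. Lck made up most of these sums (29.4 and 32.3 RPKM in naive libraries), and Cd3e was at most 0.185 RPKM in any library. NK cell markers summed to 6.94 to 7.21 RPKM in naive libraries, mostly from Prf1 (5.31 and 5.29 RPKM), against at most 3.06 RPKM elsewhere.

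Of the 48 genes, 45 could be tested. Psmd10, a 19S assembly chaperone also called gankyrin, lies on the X chromosome, whose genes were removed, and stood at 17.2 to 29.3 RPKM in the 12 libraries. Psma8, an alpha subunit of the testis, had at most 14 counts in a library, and Psmb11, the catalytic subunit of thymus epithelium, at most 1 count.

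Most proteasome genes were low in naive cells, rose within 3 h of LPS and again by 10 h, and then drifted down. The 45 genes summed to 3525 and 3660 RPKM in naive cells, 4884 and 5257 RPKM at 3 h and 6852 and 6539 RPKM at 10 h. The sums were then 6286 and 7087 RPKM at 33 h, 6388 and 6180 RPKM in expanded B cells and 5705 and 5874 RPKM in plasmablasts. Naive libraries were the lowest and did not overlap those of any other stage, whereas the libraries of 10 h and 33 h overlapped. As a share of the RPKM of all genes kept, proteasome genes took 0.733% ± 0.018 (SD, n = 2) in naive cells, 1.54% ± 0.032 at 10 h and 0.756% ± 0.0031 in plasmablasts. In bulk RNA, fewer cells that express a gene and less of its RNA per cell cannot be told apart.

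**Figure D1:**
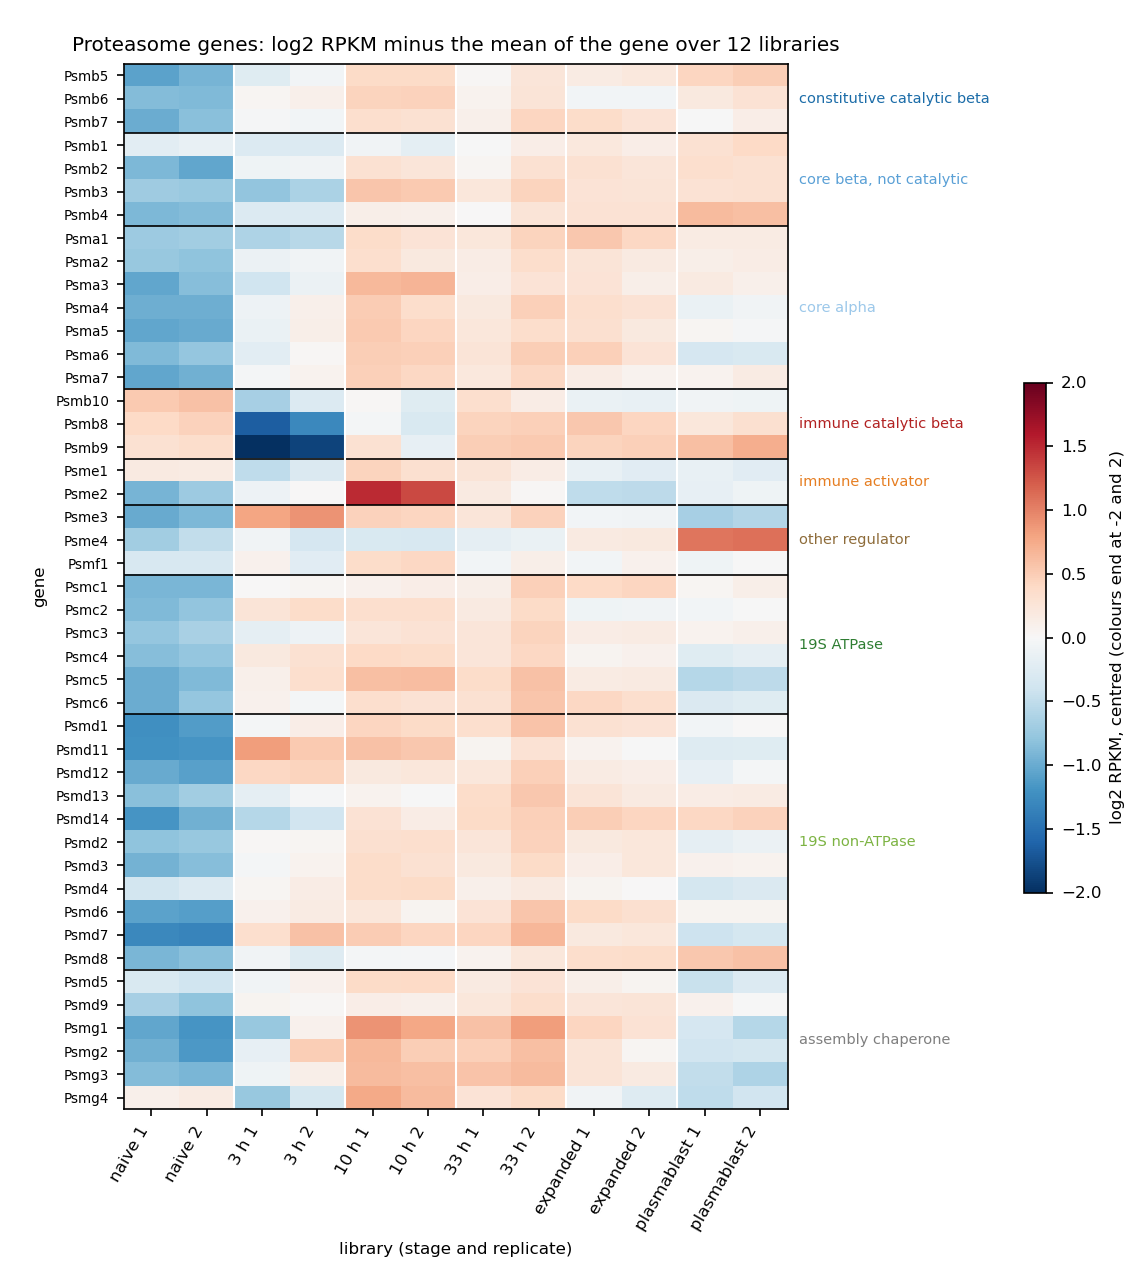
Level of the 45 tested proteasome genes (rows, by class) in the 12 libraries (columns, by stage and replicate), as log2 RPKM minus the mean of the gene, with blue for lower and red for higher. Naive libraries are blue in nearly all classes, and the 3 immune catalytic genes are instead lowest (blue) at 3 h.

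Between naive cells and 3 h, 24 of 45 proteasome genes rose as DE and 3 fell, where 21.0% of all tested genes rose and 24.3% fell. At any size 36 rose and 5 fell (background 34.7% and 36.3%). The median log2 fold change was 0.82 over the proteasome genes and -0.03 over all tested genes. The classes went different ways. All 17 19S genes rose at any size and 12 as DE, with a median of 0.93. Of the 14 constitutive 20S genes 11 rose at any size and 7 as DE (median 0.80), and each of the 3 immune catalytic genes fell as DE (median -1.89). The calls depended on scaling: with library size alone, which moved the median of all genes by -0.21 at this step, 14 rose and 5 fell as DE.

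**Figure D2:**
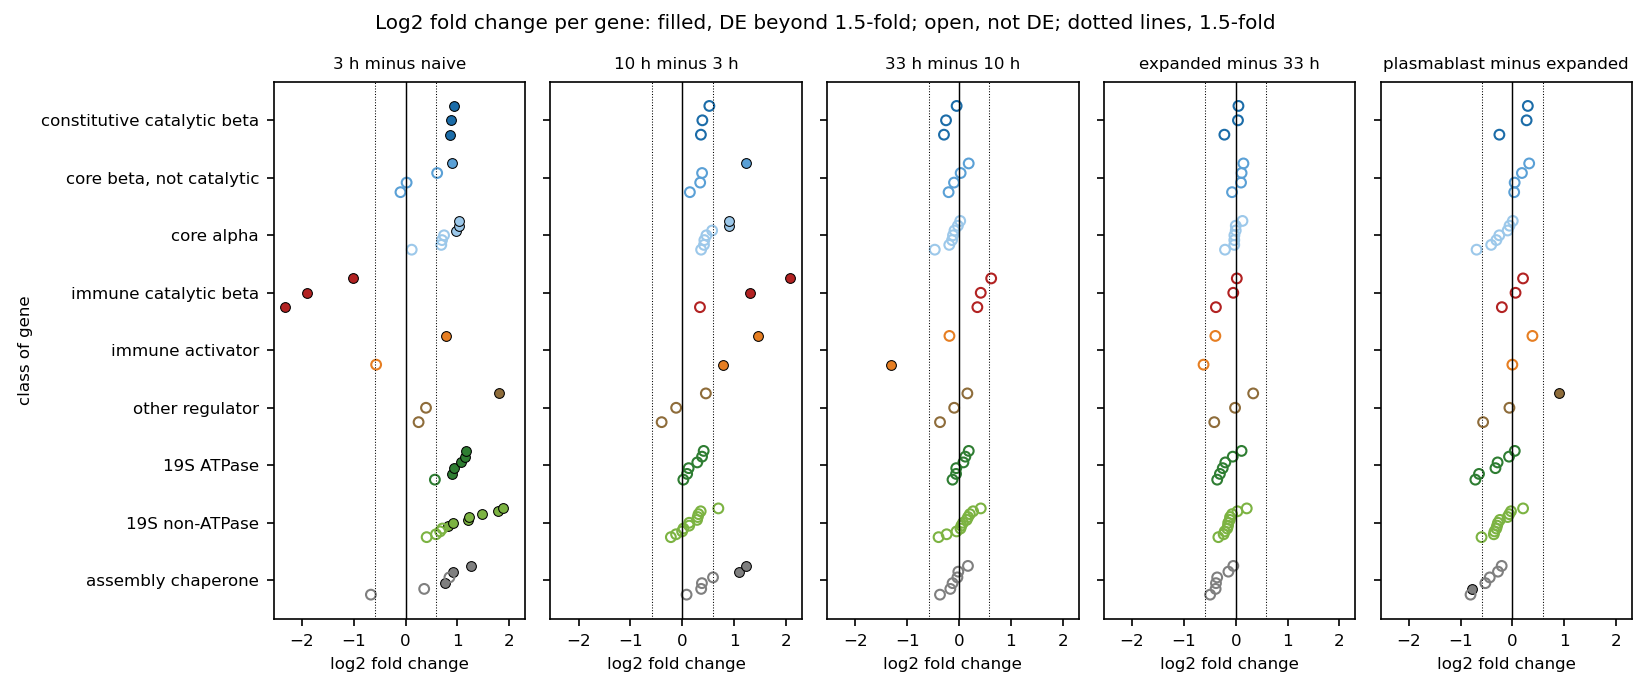
Log2 fold change of each proteasome gene (points) at the 5 consecutive transitions (panels), by class (rows); filled points are DE. From naive to 3 h, the 19S genes lie to the right of 0 and the 3 immune catalytic genes to the left, and from expanded B cells to plasmablasts most points lie near or below 0.

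The immune catalytic genes were the sharpest exception to the common course. Psmb9, the immune beta1 subunit, stood at 124 and 128 RPKM in naive cells, 22.1 and 27.9 RPKM at 3 h, and 124 and 89.4 RPKM at 10 h. It then stood at 142 and 144 RPKM at 33 h, 137 and 140 RPKM in expanded B cells and 152 and 166 RPKM in plasmablasts. The libraries of 3 h lay below all others, by a wide margin. Its log2 fold change was -2.32 from naive cells to 3 h (standard error 0.15, adjusted p = 9.8e-08 from glmTreat) and 2.08 over the next step (standard error 0.15, adjusted p = 1.0e-06).

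Psmb8, the immune beta5 subunit and in naive cells the highest of the 6 catalytic genes per length, stood at 371 and 390 RPKM in naive cells, 89.7 and 115 RPKM at 3 h and 276 and 228 RPKM at 10 h. It returned to 383 and 392 RPKM at 33 h, with 408 and 378 RPKM in expanded B cells and 331 and 351 RPKM in plasmablasts. As for Psmb9, the libraries of 3 h were the lowest and did not overlap those of any other stage. The log2 fold change was -1.89 by 3 h (standard error 0.12, adjusted p = 1.6e-07) and 1.30 by 10 h (standard error 0.12, adjusted p = 4.2e-05).

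Psmb10, the immune beta2 subunit, shared the fall but came back less. It stood at 103 and 108 RPKM in naive cells and 45.3 and 59.9 RPKM at 3 h, which is -1.0 on the log2 scale (standard error 0.13, adjusted p = 0.0021). By 10 h it was at 73.0 and 60.7 RPKM, a rise of 0.34 on the log2 scale that was called at any size (adjusted p = 0.033, F-test) but not as DE. At 33 h it stood at 91.2 and 79.6 RPKM, above both 3 h libraries and below both naive ones. The step to expanded B cells was then -0.38 on the log2 scale, a fall at any size and not as DE. In expanded B cells it stood at 66.0 and 65.1 RPKM and in plasmablasts at 68.7 and 68.0 RPKM. There the difference from naive cells was -0.63 on the log2 scale (standard error 0.13), below at any size (adjusted p = 0.00057, F-test) and not DE (adjusted p = 0.27, glmTreat). All 3 falls by 3 h stayed DE in each of the 22 alternatives described in the closing section. The naive libraries that bound these falls also carried the myeloid and erythroid transcripts given above, whose part in the falls was not tested. The rises of Psmb9 and Psmb8 from 3 h to 10 h lay between stages whose myeloid sum was at most 0.667 RPKM and erythroid sum at most 3.20 RPKM. The part of these transcripts in the rises was not tested either.

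The constitutive partners moved the other way at the first step. Psmb5 (beta5) stood at 63.5 and 69.8 RPKM in naive cells, 112 and 128 RPKM at 3 h and 173 and 173 RPKM at 10 h, and reached 178 and 186 RPKM in plasmablasts. Psmb6 (beta1) stood at 86.8 and 85.8 RPKM in naive cells, 162 and 168 RPKM at 3 h and 215 and 217 RPKM at 10 h. Psmb7 (beta2) stood at 76.5 and 85.8 RPKM in naive cells, 150 and 146 RPKM at 3 h and 192 and 188 RPKM at 10 h. For each of these genes the libraries of naive cells, 3 h and 10 h did not overlap. Their log2 fold changes by 3 h were 0.85, 0.93 and 0.87 (standard errors 0.10, 0.08 and 0.11, adjusted p = 0.0057, 0.00040 and 0.0070), all DE. The calls of Psmb5 and Psmb7 were not kept without naive replicate 1, at adjusted p = 0.050 and 0.062, nor that of Psmb5 without 3 h replicate 2 (0.067) or those of both with library size alone and with DESeq2's Wald test. From 3 h to 10 h all 3 rose at any size by 0.36 to 0.52 on the log2 scale, and none was DE.

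**Figure D3:**
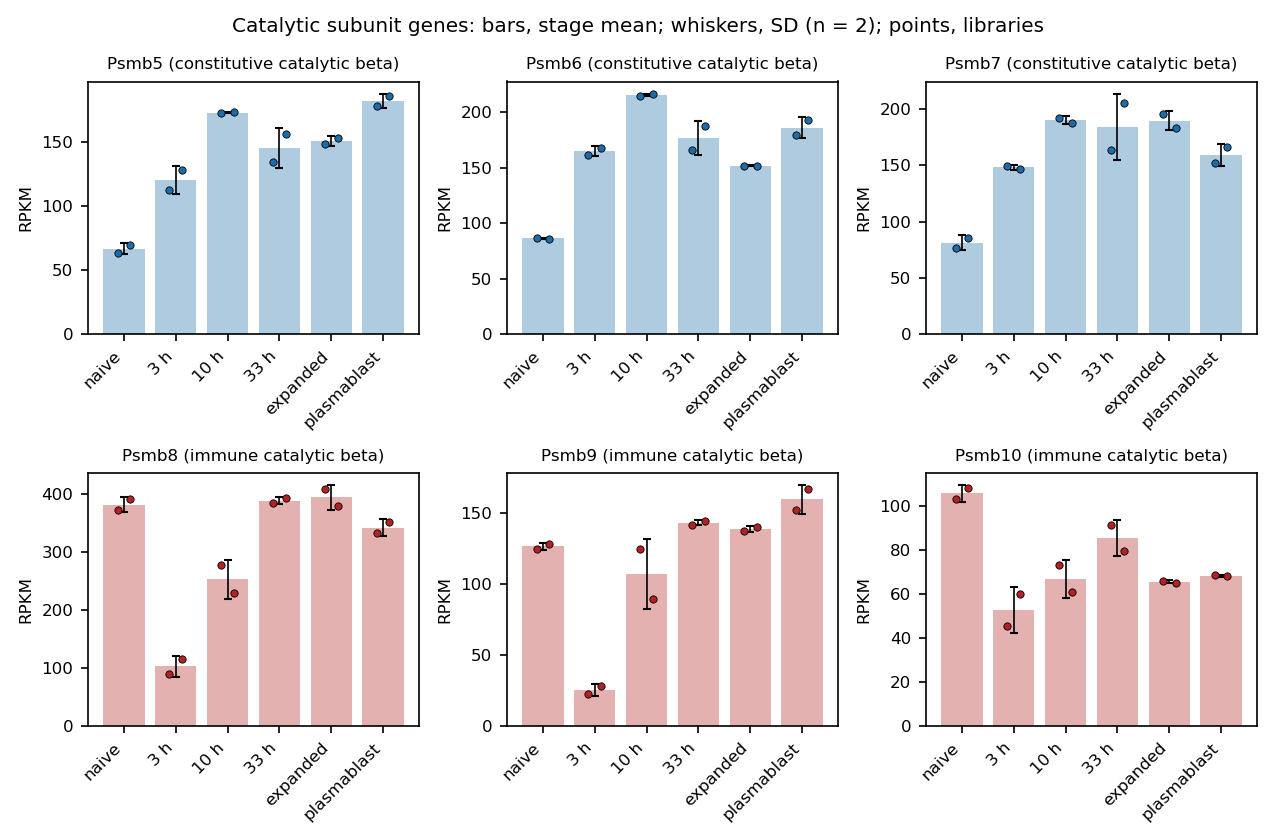
RPKM of the constitutive (top, blue) and immune (bottom, red) catalytic genes at the 6 stages; bars are means of 2 libraries, whiskers SD and points libraries, and each panel has its own axis from 0. Constitutive genes step up from naive cells to 3 h and 10 h, whereas the immune genes drop at 3 h.

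The balance between each immune gene and the partner it replaces was compared within libraries, where library scaling cancels. Psmb8 made up 85.4% and 84.8% of the summed RPKM of Psmb8 and Psmb5 in the naive libraries, 44.4% and 47.3% after 3 h, 61.5% and 56.9% after 10 h and 65.1% and 65.4% in plasmablasts. The share of Psmb9 in the beta1 pair was 58.9% and 59.8% in the naive libraries, 12.0% and 14.3% after 3 h, 36.6% and 29.2% after 10 h and 45.9% and 46.3% in plasmablasts. For beta2, Psmb10 held 57.4% and 55.8% in the naive libraries, 23.2% and 29.0% after 3 h, 27.5% and 24.4% after 10 h and 31.1% and 29.0% in plasmablasts. At 33 h the shares were 74.0% and 71.5% for Psmb8, 46.1% and 43.5% for Psmb9 and 35.8% and 28.0% for Psmb10. In expanded B cells they were 73.4% and 71.2%, 47.5% and 47.9%, and 25.2% and 26.2%, in the same order. Naive cells thus held the highest immune share for all 3 pairs, and no later library reached it. The log2 ratio fell from naive cells to 3 h by 2.76 for Psmb8 over Psmb5, by 3.28 for Psmb9 over Psmb6 and by 1.89 for Psmb10 over Psmb7. Differences between stages were tested with an exact permutation test of the between-stage sum of squares over all 10395 ways to split 12 libraries into pairs, which takes no account of direction and can give no p below 0.0001. The exact permutation test gave p = 0.00019, 0.00019 and 0.031 (Benjamini-Hochberg adjusted over the 3 ratios, 0.00029, 0.00029 and 0.031). With any 1 library left out, p was at most 0.00048, 0.00077 and 0.048. RefSeq lists pseudogenes named after Psmb5, Psmb6, Psmb7 and Psma5. Reads shared with such copies could change the counts of these genes, in a direction that depends on how such reads were treated, which is not given. The height of a share is thus less certain than its course.

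**Figure D4:**
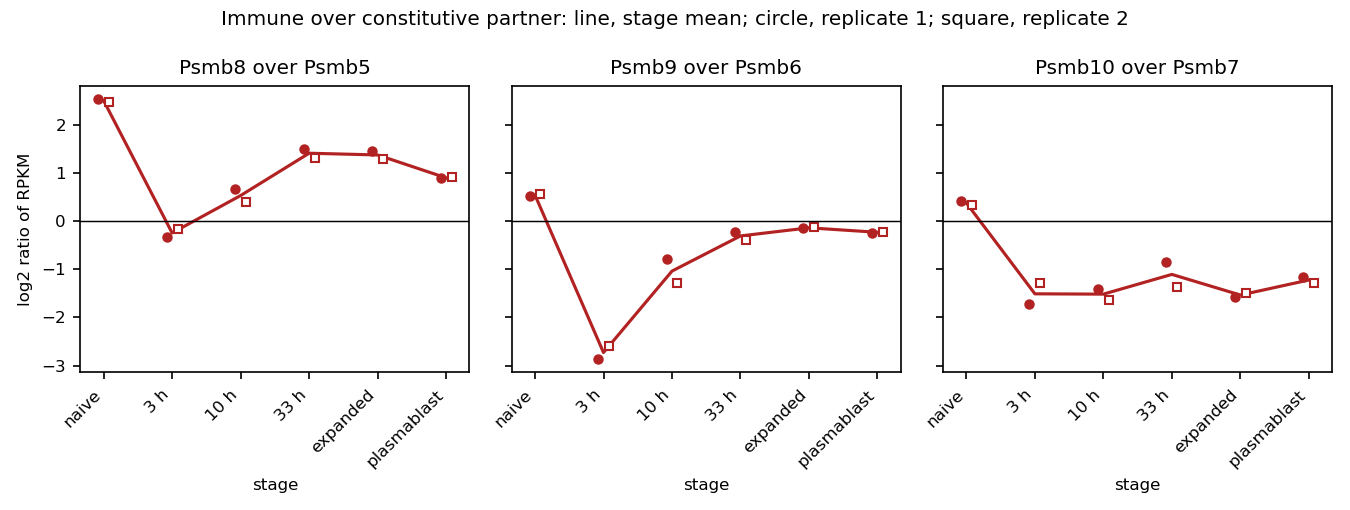
Log2 ratio of RPKM of each immune catalytic gene over the constitutive gene whose place it takes (panels), by stage; circles and squares are replicates 1 and 2 and lines stage means. All 3 ratios drop from naive cells to 3 h, and those of Psmb8 and Psmb9 climb back part of the way while that of Psmb10 stays low.

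Psmb9 and Psmb8 are neighbours in the MHC class II region, interleaved with the genes of the TAP peptide transporter. In mm10 (GRCm38), Psmb9 spans chromosome 17 from 34182030 to 34187330, Tap1 from 34187556 to 34197225, Psmb8 from 34198195 to 34201454 and Tap2 from 34204479 to 34216321, all within 34292 bases. Psmb9 and Tap1 are read in opposite directions from starts 225 bases apart. This stretch is printed because it is the whole of the sequence between genes that moved together, written on the strand of Psmb9 (minus), 5′ to 3′, with the only CCAAT box match (CCAAT or its reverse complement ATTGG) in capitals.
Psmb9 and Tap1, chr17:34187331-34187555: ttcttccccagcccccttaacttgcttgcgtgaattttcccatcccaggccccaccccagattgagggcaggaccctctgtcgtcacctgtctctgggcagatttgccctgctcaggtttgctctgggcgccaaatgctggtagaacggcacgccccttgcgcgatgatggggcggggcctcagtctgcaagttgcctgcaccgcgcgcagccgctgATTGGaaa
Tap1 stood at 148 and 156 RPKM in naive cells, 54.7 and 57.6 RPKM at 3 h and 136 and 107 RPKM at 10 h. The log2 fold changes of Tap1 were -1.43 by 3 h (standard error 0.11, adjusted p = 2.6e-06) and 1.11 by 10 h (standard error 0.11, adjusted p = 0.00025), in the same directions as Psmb9. Tap2 fell by 1.26 on the log2 scale by 3 h (standard error 0.09) as DE and rose by 0.66 by 10 h at any size. Psmb10, which fell with them, lies apart from this cluster on chromosome 8 from 105935728 to 105938392.

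Among genes known to induce the immune subunits, Irf1 is a transcription factor of the interferon response and Nlrc5 is the transactivator of MHC class I genes. Both fell as DE by 3 h. Nlrc5 stood at 5.55 and 5.57 RPKM in naive cells, 2.35 and 2.54 RPKM at 3 h and 6.79 and 4.16 RPKM at 10 h, with log2 fold changes of -1.18 (standard error 0.19) and 1.16 (standard error 0.18), both DE. Irf1 stood at 41.6 and 46.0 RPKM in naive cells and 13.7 and 13.5 RPKM at 3 h but remained at 12.1 and 12.6 RPKM at 10 h, and its level in plasmablasts was 28.3 and 23.0 RPKM.

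The PA28 genes split. Psme1 (PA28 alpha) stood at 308 and 304 RPKM in naive cells, 190 and 223 RPKM at 3 h and 370 and 339 RPKM at 10 h, then 324 and 300 RPKM at 33 h, 245 and 230 RPKM in expanded B cells and 243 and 232 RPKM in plasmablasts. It fell by 0.57 on the log2 scale by 3 h at any size (adjusted p = 0.00011, F-test), not as DE, and rose by 0.78 by 10 h as DE (standard error 0.09, adjusted p = 0.026), a call lost in 7 of 22 alternatives, among them those without 3 h replicate 1 (adjusted p = 0.19), without 10 h replicate 1 (0.15) and without either plasmablast replicate (0.061 each). Psme2 (PA28 beta) stood at 23.6 and 26.9 RPKM in naive cells, 41.7 and 44.9 RPKM at 3 h and 126 and 111 RPKM at 10 h, and then 50.8 and 45.3 RPKM at 33 h, 31.4 and 31.2 RPKM in expanded B cells and 39.9 and 41.8 RPKM in plasmablasts. Its libraries of 10 h were far above all others. The rise by 10 h was 1.45 on the log2 scale (standard error 0.11, adjusted p = 3.8e-06) and the fall by 33 h was -1.30 (standard error 0.10, adjusted p = 2.5e-05), the only proteasome gene DE at that step. The smaller rise by 3 h, 0.78 (adjusted p = 0.028), was DE here but not in 9 of 22 alternatives, among them those without naive replicate 1 (adjusted p = 0.17), without 3 h replicate 2 (0.12) and without plasmablast replicate 1 (0.058) or 2 (0.057). Psme1 and Psme2 lie 5912 bases apart on chromosome 14. Psme1 exceeded Psme2 12.2 ± 1.23-fold in naive cells and 2.99 ± 0.068-fold at 10 h (mean ± SD, n = 2), but RefSeq also lists Psme2b, a near copy of Psme2 that is not among the genes analysed here, and how reads shared with it were counted is not stated.

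Psme3 (PA28 gamma), which forms a nuclear activator that acts without ubiquitin, rose at once and then declined. It stood at 70.9 and 76.9 RPKM in naive cells and 247 and 267 RPKM at 3 h, a rise of 1.8 on the log2 scale (standard error 0.09, adjusted p = 2.4e-08). At 10 h it stood at 197 and 193 RPKM, at 33 h at 169 and 197 RPKM, in expanded B cells at 138 and 136 RPKM and in plasmablasts at 90.0 and 95.3 RPKM. The falls by 10 h, from 33 h to expanded B cells and from there to plasmablasts were called at any size (-0.40, -0.41 and -0.57 on the log2 scale) and not as DE.

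Psme4 (PA200), an activator of nuclear proteasomes linked to histone degradation, was the only proteasome gene that rose as DE from expanded B cells to plasmablasts. It stood at 12.8 and 14.7 RPKM in naive cells, between 16.5 and 19.6 RPKM in all libraries of 3 h to 33 h, at 23.4 and 23.6 RPKM in expanded B cells and at 43.7 and 44.4 RPKM in plasmablasts. The plasmablast libraries were thus well above every other. The log2 fold change was 0.91 (standard error 0.10, adjusted p = 0.0033) from expanded B cells and 1.68 (standard error 0.10, adjusted p = 7.5e-08) from naive cells, the largest rise of any proteasome gene between the start and the end. With library size alone, the rise from expanded B cells was 0.57 and not DE.

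Psmf1 (PI31), known as an inhibitor of the purified 20S and as an adaptor in its transport, varied between 14.3 and 23.9 RPKM over all libraries. It was DE in none of the 6 comparisons by glmTreat, and its largest step was a rise of 0.46 on the log2 scale by 10 h that was called at any size (adjusted p = 0.0031).

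**Figure D5:**
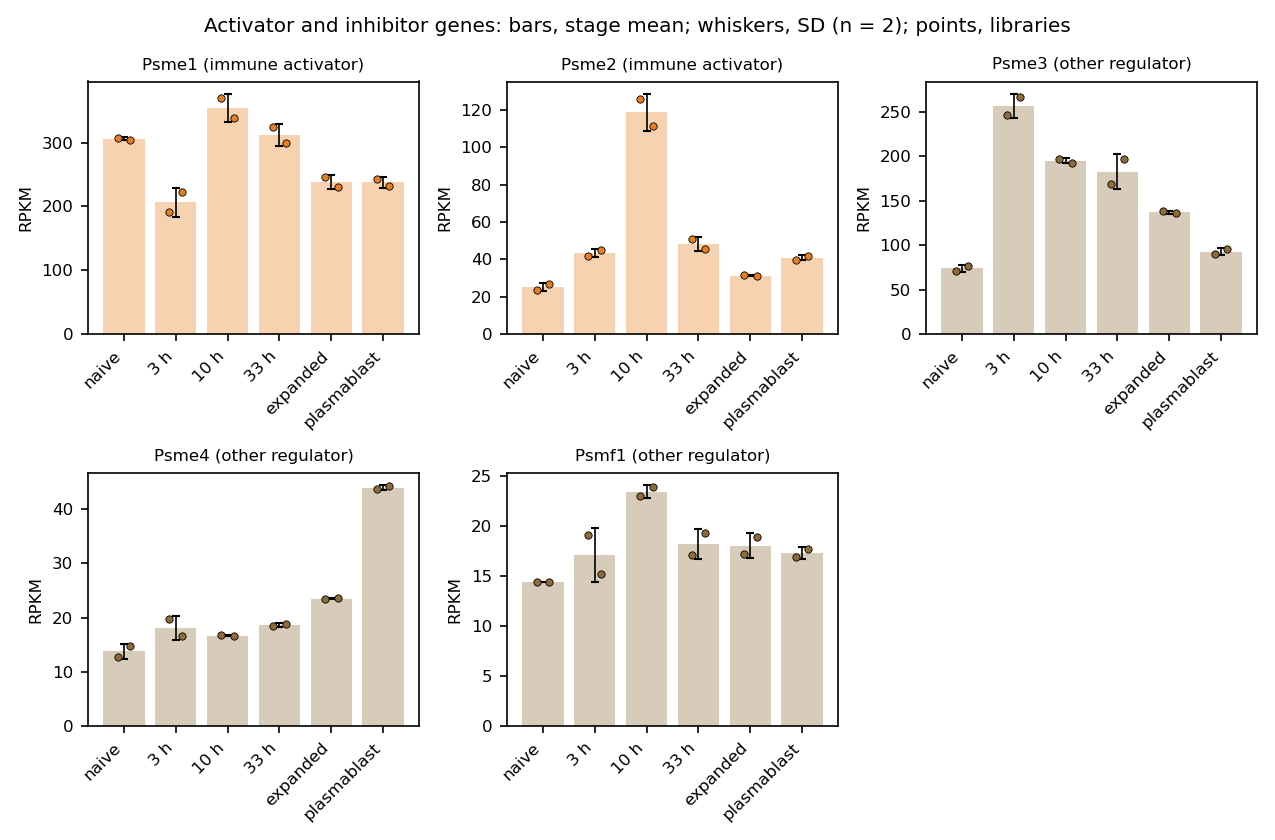
RPKM of the PA28 genes (Psme1, Psme2, Psme3), PA200 (Psme4) and PI31 (Psmf1) at the 6 stages; bars are means of 2 libraries, whiskers SD and points libraries, and each panel has its own axis from 0. The tallest bars of Psme2, Psme3 and Psme4 stand at 10 h, at 3 h and in plasmablasts, respectively.

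The largest rises by 3 h among the constitutive parts were those of 19S genes. Psmd11, a scaffold subunit of the lid, stood at 20.9 and 21.6 RPKM in naive cells and 87.2 and 69.8 RPKM at 3 h, a rise of 1.88 on the log2 scale (standard error 0.12, adjusted p = 1.1e-07), the largest rise of all proteasome genes by 3 h. Psmd7, the partner of the lid deubiquitinase, stood at 49.0 and 48.0 RPKM in naive cells and 151 and 180 RPKM at 3 h (1.77, standard error 0.10, adjusted p = 1.0e-07). Psmd12, another lid scaffold, went from 42.7 and 40.5 RPKM to 114 and 117 RPKM (1.47, standard error 0.09). Both libraries of 3 h were far above both naive libraries for each of them. Of the 6 ATPase genes 5 were DE, with a range of 0.57 (Psmc3) to 1.16 (Psmc5) over all 6. Among the 11 non-ATPase genes 7 were DE, where 21.0% of all tested genes rose as DE. The lowest 19S rise was that of the ubiquitin receptor Psmd4, from 115 and 124 RPKM to 152 and 165 RPKM (0.41, standard error 0.08), called at any size.

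By 10 h, 9 of 45 proteasome genes had risen as DE and none had fallen, with 17.4% of all tested genes up and 13.4% down. At an unadjusted glmTreat p under 0.05 there were 10 rises and 0 falls, and DESeq2's Wald test called 5 rises and 0 falls. At any size 31 rose and 1 fell (background 32.1% and 30.2%), with a median of 0.36 against 0.02 for all genes. The 9 were the immune genes Psmb9, Psmb8, Psme1 and Psme2, the core genes Psmb3, Psma1 and Psma3, and the assembly chaperones Psmg4 and Psmg1. Of the 17 19S genes, none of which is among the 9, 8 rose at any size (median 0.13), whereas 13 of the 14 constitutive 20S genes rose at any size (median 0.42). With library size alone, which moved the median of all genes by 0.33 at this step, 16 proteasome genes rose as DE and 42 at any size, and the 19S median was 0.47. The shares of all tested genes given above are not those of this scaling. Psmd7, one of the largest rises by 3 h, stood at 171 and 161 RPKM at 10 h, within the range of its 3 h libraries.

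The balance between cap and core moved with these steps. The summed RPKM of the 17 19S genes over that of the 14 constitutive 20S genes was 0.822 and 0.845 for naive cells, 1.06 and 1.05 for 3 h, and 0.874 and 0.892 for 10 h. For 33 h it was 0.970 and 0.955, for expanded B cells 0.849 and 0.890, and for plasmablasts 0.753 and 0.757. The libraries of 3 h were the highest and those of plasmablasts the lowest, and no other stage overlapped either. This ratio was not tested.

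A few core genes did not take part in the first rise. Psmb3 stood at 47.2 and 46.4 RPKM in naive cells and 44.8 and 49.9 RPKM at 3 h, then 113 and 111 RPKM at 10 h, with log2 fold changes of 0.02 and 1.24 (standard errors 0.10, adjusted p = 1.9e-05 for the second). Psma1 stood at 102 and 104 RPKM, 109 and 114 RPKM and 217 and 202 RPKM at these stages, with a rise of 0.91 by 10 h (standard error 0.09, adjusted p = 0.0019). Their rises thus fell almost wholly between 3 h and 10 h. Psmb1, the only 20S gene not called at either step, stood at 217 to 251 RPKM in the libraries of naive cells, 3 h and 10 h and at 325 and 348 RPKM in plasmablasts.

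The assembly chaperones tested help build the core (Psmg1 to Psmg4) or the base of the 19S cap (Psmd5 and Psmd9). Psmg4 fell by 0.67 on the log2 scale by 3 h at any size, from 44.3 and 45.9 RPKM to 24.2 and 32.1 RPKM, and rose by 1.23 by 10 h as DE (standard error 0.14, adjusted p = 0.00026) to 69.9 and 63.7 RPKM. It was the only tested gene outside the immune classes that fell by 3 h at any size. Psmg1, which forms a pair with Psmg2 in alpha ring assembly, stood at 18.2 and 16.7 RPKM, 22.2 and 39.9 RPKM and 70.3 and 64.0 RPKM at these stages. The wide gap between its 3 h replicates left the first step at 0.85 (standard error 0.21, adjusted p = 0.085), short of DE, and the second at 1.10 (standard error 0.21, adjusted p = 0.015). Of the 6 tested chaperones 3 rose as DE by 3 h, namely Psmg2, Psmg3 and Psmd9, where 21.0% of all tested genes rose. The log2 difference between replicates varied over the 45 genes with an SD of 0.21 at 3 h and of at most 0.12 at any other stage.

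From 10 h to 33 h, 0 of 45 proteasome genes rose and 1, Psme2, fell as DE, where 10.1% of all tested genes rose and 4.45% fell. The unadjusted glmTreat counts were 0 and 1, and DESeq2's Wald test gave the same numbers. At any size 5 rose and 7 fell (23.2% and 22.2% of all genes), or 2 and 9 with library size alone, and from 5 in all without 10 h replicate 2 to 16 without 3 h replicate 2. The 5 rises included the 3 immune catalytic genes, by 0.62 (Psmb8), 0.42 (Psmb9) and 0.35 (Psmb10) on the log2 scale.

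Between 33 h and expanded B cells no proteasome gene was DE in either direction, by glmTreat, at an unadjusted glmTreat p under 0.05 or by DESeq2's Wald test (all 0), against 6.94% and 3.66% of all tested genes. At any size 1 rose, Psme4, and 10 fell (background 18.5% and 21.2%), among them Psme1, Psme2, Psme3 and Psmb10. The count at any size moved with the libraries used, from 3 without expanded B cell replicate 2 to 19 without 3 h replicate 1.

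Plasmablasts differed from expanded B cells in few proteasome genes. Psme4 rose and Psmg3 fell as DE, with 13.9% of all tested genes up and 12.2% down. With DESeq2's size factors only Psme4 was DE, and with library size alone 0 rose and 8 fell. The fall of Psmg3, the partner of Psmg4, from 35.1 and 33.2 RPKM to 20.9 and 19.1 RPKM (log2 fold change -0.78, standard error 0.11), sat at the threshold (adjusted p = 0.0497) and was lost in 14 of 22 alternatives, including those without either replicate of naive cells, 10 h, expanded B cells or plasmablasts (adjusted p of 0.058 to 0.29). Leaving out 1 library at a time gave 1 to 4 DE genes, the most without 3 h replicate 2. At any size 5 rose and 19 fell (background 27.2% and 29.7%), or 1 and 36 with library size alone, and from 13 in all without plasmablast replicate 2 to 30 without 3 h replicate 2. The median was -0.21 over the proteasome genes and -0.05 over all genes. Within the constitutive 20S the median was -0.03, with 3 up and 3 down at any size, among them Psmb5 (0.27), Psmb6 (0.30) and Psmb4 (0.32) up, whose signs all turned with library size alone (-0.066, -0.043 and -0.017). Of the 19S genes 11 of 17 fell at any size and 0 rose (median -0.29), from -0.72 for Psmc5 to 0.20 for Psmd8.

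From start to end, with the scaling used here, most proteasome genes were higher in plasmablasts than in naive cells. Their share of the RPKM of all genes kept differed little, at 0.733% ± 0.018 in naive cells and 0.756% ± 0.0031 in plasmablasts (SD, n = 2). As DE, 26 rose and 0 fell, with 26.6% of all tested genes up and 23.4% down. The unadjusted glmTreat counts were also 26 and 0, DESeq2's Wald test gave 23 and 0, and library size alone 12 and 2. At any size 39 rose and 3 fell (38.2% and 35.9% of all genes), and the median was 0.87 against 0.02. Of the 14 constitutive 20S genes 12 were DE (median 1.02) and of the 17 19S genes 12 (median 0.93). After Psme4 the largest rises were those of Psmd14, the deubiquitinase of the lid, from 51.9 and 60.6 RPKM to 157 and 161 RPKM (1.5, standard error 0.10, adjusted p = 3.5e-07), and Psmb4, a beta subunit without catalytic activity, from 183 and 186 RPKM to 525 and 514 RPKM (1.5, standard error 0.09, adjusted p = 1.1e-07). Psmd14 had reached 131 to 143 RPKM by 10 h. For the immune catalytic genes the log2 fold change was -0.16 (Psmb8), 0.34 (Psmb9) and -0.63 (Psmb10). None of them was DE, and Psmb9 was higher and Psmb10 lower at any size. Psmb10 was DE in 2 of 22 alternatives, with library size alone (-0.91, adjusted p = 0.0095) and with only the 4 libraries compared (-0.68, adjusted p = 0.048). These comparisons also have the naive libraries on one side, with the myeloid and erythroid transcripts given above, whose part was not tested.

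Likeness to the common course was measured by the correlation of a gene's 6 stage means with the median profile of the 45 genes, a description over 6 points that share libraries. The least alike were Psmb10 (r = -0.57), Psmb8 (-0.08) and Psmb9 (0.04), followed by Psme1 (0.05) and Psmg4 (0.22). The most alike were Psma5, Psmd1 and Psmd3 (0.99 or above). The levels of the 14 constitutive core genes, which enter each particle in equal number, spread widely. In naive cells they ran from 6.54 RPKM (Psma5) to 232 RPKM (Psmb1), with a median of 83.7 RPKM, and in plasmablasts from 13.3 RPKM (Psma5) to 520 RPKM (Psmb4). Psma5 has a pseudogene named after it, and reads shared with such a copy could change its count. Next above it in naive cells were Psma3 (12.4 RPKM) and Psmb3 (46.8 RPKM), so that the width of the spread rests largely on Psma5 and Psma3. The 17 19S genes ran from 21.2 RPKM (Psmd11) to 119 RPKM (Psmd4) in naive cells.

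Promoter sequences from RefSeq (GRCm38.p6, 250 bases before to 50 bases after the start) were matched to 40 of the 48 genes and searched on both strands for motifs that bear on the classes. The letters CCGGAAG, the core of sites bound by ETS factors, were found in 14 of 40 proteasome promoters (35%), in 9.93% of all 27025 genes of the table and in 12.9% of the protein-coding ones. They were in 9 of 14 19S promoters and in none of the 3 immune or 2 constitutive catalytic ones. The 60 bases before the start are printed for 5 of the 19S genes whose match lies there, on the strand of the gene with the match (CCGGAAG or its reverse complement CTTCCGG) in capitals. They begin with the 2 lid scaffolds of large early rise and go on with the base subunit Psmd2, the ATPase Psmc1 and the lid subunit Psmd6, all DE by 3 h.
Psmd11, chr11:80428555-80428614, plus: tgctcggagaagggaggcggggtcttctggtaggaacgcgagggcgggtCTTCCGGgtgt
Psmd12, chr11:107479468-107479527, plus: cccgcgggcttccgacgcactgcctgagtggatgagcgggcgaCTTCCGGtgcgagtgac
Psmd2, chr16:20651592-20651651, plus: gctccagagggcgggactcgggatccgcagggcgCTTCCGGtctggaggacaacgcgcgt
Psmc1, chr12:100110142-100110201, plus: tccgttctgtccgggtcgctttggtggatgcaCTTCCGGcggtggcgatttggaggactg
Psmd6, chr14:14120946-14121005, minus: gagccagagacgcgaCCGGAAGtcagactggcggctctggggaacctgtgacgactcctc
For Psmd2 the gene record begins at 20651122, upstream of the start used here, so that its printed bases lie within the gene as annotated. The match lies within the last 45 bases before the start in these 5 promoters, which were chosen after the values were seen. Psmc2, also DE by 3 h, holds a match there too, and Psmd13 and Psmd4 hold one in their promoters but were not DE by 3 h (adjusted p = 0.14 and 1, glmTreat). Psmc6, also DE, holds one further from the start. Among 19S genes whose promoters held no match, Psmc4, Psmc5 and Psmd1 were DE by 3 h, and Psmd8 and Psmd14 were not. Psmd7 and Psmd3, both DE, and Psmc3, not DE, had no promoter entry.

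The letters TGACNNNGC, the core of the antioxidant response element that NFE2L1 and NFE2L2 bind, were in 6 of 40 proteasome promoters (15%) and in 14% of all genes, so that the share was near the background. Both constitutive catalytic genes with an entry, Psmb5 and Psmb6, held a match within the 60 bases before the start used in the promoter entry. The matches are shown in capitals beside the same stretch of Psmb8, which held none. For Psmb6 the gene record begins at 70525324, upstream of that start, so that its match lies within the gene as annotated.
Psmb5, chr14:54617996-54618055, minus: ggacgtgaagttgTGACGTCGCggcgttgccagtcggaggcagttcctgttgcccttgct
Psmb6, chr11:70525297-70525356, plus: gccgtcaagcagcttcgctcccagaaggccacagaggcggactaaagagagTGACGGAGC
Psmb8, chr17:34198135-34198194, plus: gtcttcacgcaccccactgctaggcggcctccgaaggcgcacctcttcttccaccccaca
The interferon-regulatory factor repeat (GAAA, any 2 bases, GAAA) was in 5 of 40 promoters (12.5%, against 3.99% of all genes), those of Psme1, Psmb3, Psmd4, Psmd9 and Psmg4, and in none of the 3 immune catalytic ones. The kappaB letters (GGGA, any 2 bases, TTCC) were in 1 of 40 (2.50%, against 1.63%), that of Psme4, and the CCAAT box in 14 of 40 (35%, against 41.1%). The ETS and kappaB letters both hold TTCC and can overlap, and a match describes the sequence only.

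Genes around the proteasome were followed by lists of 34 names, of which 33 were tested. By 3 h 14 rose and 6 fell as DE (background 21.0% and 24.3%), by 10 h 5 rose and 2 fell (17.4% and 13.4%), by 33 h 0 rose and 2 fell (10.1% and 4.45%), between 33 h and expanded B cells 0 rose and 0 fell (6.94% and 3.66%), with 4 up and 6 down at any size, and in plasmablasts 5 rose and 0 fell against expanded B cells (13.9% and 12.2%). From naive cells to plasmablasts 10 rose and 2 fell (26.6% and 23.4%). Of the 4 genes that control proteasome synthesis, Nfe2l1, the factor that restores subunit genes when proteasome activity falls short, stood at 39.2 and 37.4 RPKM in naive cells, 102 and 101 RPKM at 3 h and 53.5 and 62.9 RPKM at 10 h. It rose by 1.41 on the log2 scale by 3 h (standard error 0.09, adjusted p = 4.8e-07) and fell by 0.81 by 10 h (standard error 0.09) and by 0.83 by 33 h, all DE. Ddi2, the protease that activates it, rose by 1.49 by 3 h as DE. Ngly1, the glycanase it also needs, went the other way, at -1.29 by 3 h and 1.27 from expanded B cells to plasmablasts, both DE.

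Of the 10 further subunits and partners, 5 rose as DE by 3 h and none fell, where 21.0% of all tested genes rose. Txnl1, a thioredoxin bound to the 19S, stood at 23.6 and 22.2 RPKM in naive cells, 56.9 and 58.9 RPKM at 3 h and 97.7 and 96.6 RPKM in plasmablasts, with a log2 fold change of 2.08 from start to end (standard error 0.09), above that of any proteasome gene. The 19S deubiquitinases Usp14 and Uchl5 rose by 1.32 and 1.21 by 3 h. Pomp, the chaperone of beta ring assembly, rose by 0.79 by 10 h as DE, the step at which Psmg4 and Psmg1 also rose. Of the 7 genes that deliver substrates 5 rose as DE by 3 h, against the same background, including the unfoldase Vcp (1.16) and the shuttle Rad23b (1.37). The ubiquitin-activating gene Uba1 is on the X chromosome and was not tested. Of the 5 genes that trim, transport and present peptides, B2m, the light chain of MHC class I, and Tapbp, which links it to TAP, rose as DE from expanded B cells to plasmablasts, by 1.72 and 1.21 on the log2 scale.

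The genes that share only the prefix did not follow the common course. Psmc3ip, a partner of meiotic recombinases named after Psmc3, stood at 3.56 and 4.71 RPKM in naive cells, 15.4 and 13.2 RPKM at 10 h and 32.2 and 36.9 RPKM at 33 h. It rose by 1.83 by 10 h and by 1.27 by 33 h on the log2 scale, both DE. Psme3ip1, a partner of Psme3, stood between 28.8 and 64.2 RPKM, highest at 3 h, and was DE in none of the 6 comparisons by glmTreat.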

How the data were processed

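RNA-Seq was performed on 12 mouse B cell libraries. The authors prepared TruSeq libraries, sequenced read pairs on an Illumina NextSeq, aligned them to mm10 with Rsubread (the submitters' processing notes also name CASAVA 1.8.2) and counted them per Entrez gene with featureCounts and its inbuilt annotation. The deposited values are these raw counts, neither normalized nor filtered, with the length of each gene. How reads shared by several genes were treated, and whether a pair was counted once, is not given in the sources used here. Each per-sample file gave counts identical to its column in the joint table.

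IDs were matched to RefSeq for symbols (25275 of 27179). Unmatched, mitochondrial, ribosomal RNA, X and Y chromosome and variable immunoglobulin genes were removed, and filterByExpr kept 12750 of the remaining 23700 genes. edgeR 4.0.16 in R 4.3.3 was used with TMM scaling, a one-way layout over all 12 libraries and robust quasi-likelihood dispersions of the earlier method. Removed genes lie outside the RPKM denominators. Comparisons were made with glmTreat (1.5-fold) and the quasi-likelihood F-test, adjusted by Benjamini-Hochberg at 0.05. The members and lists were chosen with earlier results of these data known. Named genes are the catalytic, PA28, PA200 and PI31 genes, for each comparison the 3 largest rises and 3 largest falls that were DE, the 3 genes least like the median profile, genes not tested, and the pathway lists. Other genes named in the text were chosen after their values were seen. Steps were tested on simulated counts. Alternatives included DESeq2 1.42.0. Same-numbered libraries did not deviate together (0 of 15 stage pairs had a correlation over 0.1), so numbers were not taken as pairs. Some genes of the pathway lists count in the list totals but are not reported here by name.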

Additional observations from a re-analysis of the deposited data

How the results depend on the processing

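Of 66 pairs of a named gene and a comparison, 26 were DE and 16 of these stayed DE in all 22 alternatives. Signs changed in 4 pairs, all where only library sizes were used for scaling: Psmb5 (-0.066), Psmb6 (-0.043) and Psmb4 (-0.017) between plasmablasts and expanded B cells, and Psmf1 (-0.015) between plasmablasts and naive cells. Library size alone moved the median of all tested genes by -0.21 at 3 h, 0.33 at 10 h, -0.34 from expanded B cells to plasmablasts and -0.28 from naive cells to plasmablasts, and it moved the proteasome medians at these steps to 0.61, 0.69, -0.55 and 0.59. The medians of the constitutive catalytic genes were then 0.66 at 3 h and 0.72 at 10 h, and those of the 19S genes 0.72 and 0.47. DE counts with library size alone were 16 at 10 h, 8 from expanded B cells to plasmablasts and 14 from naive cells to plasmablasts, with 37 changed at any size from expanded B cells to plasmablasts. No share of all tested genes is given for any alternative. Summed RPKM was then 3701 for naive cells, 4519 for 3 h, 7500.5 for 10 h, 6723 for expanded B cells and 4896 for plasmablasts.

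DESeq2's Wald test called 5 genes at 10 h. From expanded B cells to plasmablasts 1 gene was DE with DESeq2's size factors, with DESeq2's Wald test, with at least 10 counts in every library, with the replicate block and with the removed genes kept, and 4 with only the 4 libraries compared. The replicate block changed 1 call among the named genes, that of Psmg3 (adjusted p = 0.059). The median at this step was -0.18 with DESeq2's size factors, with its Wald test and with the 4 libraries, and -0.24 with no filter on low counts, which gave 0.76 from naive cells to plasmablasts and adds the genes with few counts. The constitutive catalytic median at 10 h was 0.31 with DESeq2's size factors and Wald test. With DESeq2's size factors, summed RPKM was 6435 at 10 h and 5920 in plasmablasts (5919.9). With the removed genes kept it was 3181, 4488, 6014, 5885, 5477 and 5071 from naive cells to plasmablasts in the order of the stages. Those genes then enter the denominator, and Psmd10 enters the sum.

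Leaving out 1 library at a time gave 1 to 4 DE genes from expanded B cells to plasmablasts and a median there of -0.26 to -0.16. Counts changed at any size ran from 13 (without plasmablast replicate 2) to 30 (without 3 h replicate 2) at that step, from 3 (without expanded B cell replicate 2) to 19 (without 3 h replicate 1) between 33 h and expanded B cells, and from 5 (without 10 h replicate 2) to 16 (without 3 h replicate 2) between 10 h and 33 h. The 19S median at 10 h ran from 0.10 to 0.23 and the constitutive catalytic one from 0.36 to 0.43. Summed RPKM ran from 6472 to 6799 at 10 h and from 5935 to 6105 in plasmablasts. The other causes of these differences were not tested. A stage left with 1 library was assumed to vary like the others. With 2 libraries a stage, outliers within a stage could not be tested, and 3 counts, the limit a count of 0 allows, were 0.0495 to 0.130 CPM.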
